A study of Mus musculus with 2 samples.

Results

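Heat shock proteins and their partners keep the proteins of a contracting muscle fibre folded and help to remove those that are damaged. The binding of the RNA-binding protein Mbnl2 to the transcripts of 10 such genes was examined in mouse quadriceps: the small heat shock protein genes *Hspb1*, *Hspb6*, *Hspb7*, *Hspb8* and *Cryab*, the HSP70 gene *Hspa8*, the HSP90 genes *Hsp90aa1* and *Hsp90ab1*, and the co-chaperone genes *Dnaja1* and *Bag3*. These genes were listed by name, by no threshold on their values but with earlier results of these data known, from 22380 protein-coding genes of the GENCODE vM1 annotation of the mouse genome build mm9 (NCBIM37). A gene was credited with each tag that overlapped it on its own strand. A tag is a unique sequence crosslinked to Mbnl2, left after the authors had collapsed identical reads. The 10 genes held 65 of the 343554 WT tags and 275 of the 476543 *Mbnl1* KO tags.

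Tags came from HITS-CLIP, in which RNA is crosslinked to protein by ultraviolet light, trimmed by RNase, immunoprecipitated and sequenced. The compared groups were quadriceps muscles of WT mice and of *Mbnl1* KO mice (labelled Mbnl1-/-), both given as C57BL/6 in the labels and 15 to 16 weeks of age, with no other allele or agent named. The study's methods give a mixed strain background for the heterozygotes crossed to make its compound mutants. The *Mbnl1* KO allele is a constitutive deletion of exon 3, present in all cells of the muscle and throughout its development. Both groups were precipitated with the Mbnl2 monoclonal antibody 3B4 after RNase A at 38.6 U/ml or 0.0386 U/ml. The 3 mice of each genotype had been merged into 1 table before deposition. The spread between mice is therefore unknown, no test between the genotypes was possible, and every interval here is an exact 95% interval that covers counting error only. The question behind the comparison was which RNAs Mbnl2 contacts when Mbnl1 is present and when it is lost.

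Values are tags per 1000000 unique tags of the table (CPM). The *Mbnl1* KO/WT ratio is the ratio of these values, with an exact Clopper-Pearson interval. The tables differed in ways that bear on each ratio: 79.0% of WT tags and 59.5% of KO tags rested on a single read, and 44.0% of WT tags but 17.0% of KO tags on assembled chromosomes consisted to at least 70% of 1 base, which lowers the WT share of all other tags. Ratios with such single-base tags left out are therefore also given, and the part of this difference in the ratios was not tested further. A count of 3 tags, taken as the detection floor, was 8.73 CPM in WT and 6.30 CPM in KO. *Mbnl1* itself held 100 WT and 452 KO tags, but tags over a gene bound by another protein do not check the genotype. All 8 skeletal muscle markers had at least 20 tags (Ckm, 32 WT and 142 KO), whereas the cardiac list had 6 WT and 3 KO tags and Nppa had 0.

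HSP70 and HSP90 chaperones use ATP to fold client proteins, J proteins such as Dnaja1 deliver clients to HSP70, and the small heat shock proteins hold unfolded proteins without ATP. In striated muscle, small heat shock proteins gather at Z-discs and intermediate filaments under load, and Bag3 joins Hspb8 to HSP70 so that damaged Z-disc proteins such as filamin are passed to autophagy. Muscleblind-like proteins bind pyrimidine-GC-pyrimidine words in RNA. Bound introns are known for control of splicing, and bound 3′ untranslated regions (3′ UTRs) for control of the place and stability of the mRNA.

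The places where Mbnl2 tags piled highest are shown first, since later values refer to them. For each gene with at least 5 overlapping tags, pooled over both genotypes, the 30 nt around the tallest position of its tallest run of tags were read from the mm9 genome on the strand of the RNA. Capitals mark the 4 pyrimidine-GC-pyrimidine words in DNA letters, searched on the strand of the RNA only and allowed to overlap. They are TGCT with thymine at both ends (uracil in the RNA), its variant ending in cytosine, TGCC, the reverse order of these ends, CGCT, and the word with cytosine at both ends, CGCC. The windows were, in the order Hspb6, Hspb1, Hspb7, Bag3, Hsp90ab1, Dnaja1 and Hspa8, chr7:31339809-31339838 on the plus strand, chr5:136365298-136365327 on the plus strand, chr4:140980932-140980961 on the plus strand, chr7:135690382-135690411 on the plus strand, chr17:45704880-45704909 on the minus strand, chr4:40680519-40680548 on the plus strand and chr9:40612125-40612154 on the plus strand. The first 6 lie in 3′ UTRs, and the Hspa8 window lies in the small nucleolar RNA gene Snord14d within an intron of Hspa8.
Hspb6: taagcctacctgagccctagtaacctagac
Hspb1: tagaagccatcagccTGCTGCCtatctccc
Hspb7: tctcctgagccacaTGCCcTGCTtCGCCct
Bag3: cagctagatatgagctatgcaaggagccat
Hsp90ab1: agccctgacccacctggctctcTGCTcatg
Dnaja1: acTGCTtaagggctTGCTcttctagattgc
Hspa8: TGCTgtgttggctagttccttccttggatg

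These windows differed in their word content. The Hspb7 window held 3 words, the Hspb1 and Dnaja1 windows 2, the Hsp90ab1 and Hspa8 windows 1, and the tallest windows of Hspb6 and Bag3 held 0. Hspb8, Cryab and Hsp90aa1 had no run of 5 tags. Over all 11 runs in the 3′ UTRs of the chaperone genes, 7 windows held a word (63.6%), beside 70.8% of 3121 tallest 3′ UTR windows of other protein-coding genes and 28.1% of 887542 windows of 30 nt that tile all 3′ UTRs. A match is a description of the letters and shows no site.

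The small heat shock protein genes Hspb6 and Hspb1 had the highest tag densities of the 10 in KO muscle, but the value of Hspb1 rested on tags that also match elsewhere in the genome. Densities were taken over the exons of the longest coding transcript. In KO muscle, Hspb6 reached 117 CPM per kb (interval 92.2 to 146) and Hspb1 93.0 (66.4 to 127), 2 values whose intervals overlap. Hsp90ab1 followed at 30.8 (21.7 to 42.5), below both and with no overlap. The order then ran through Bag3 at 21.9 (14.4 to 31.8), Hspb7 at 12.1, Cryab at 10.6, Hspa8 at 8.77, Hspb8 at 4.62, Hsp90aa1 at 1.92 and Dnaja1 at 1.87, and from Hsp90ab1 down each interval overlapped that of its neighbour. In WT muscle the same 3 genes led, with Hspb1 at 29.0 (13.3 to 55.1), Hspb6 at 27.8 (14.8 to 47.5) and Hsp90ab1 at 18.5 (10.6 to 30), and all 3 intervals overlapped. With tags that match elsewhere left out, Hspb6 was at 27.8 in WT and 115 in KO, whereas Hspb1 was at 9.67 and 18.6 (8.03 to 36.6) and Hsp90ab1 at 5.78 and 15.8 (9.53 to 24.7), KO values below the 21.9 of Bag3 with overlapping intervals. Hspa8 was then at 2.63 in KO (0.542 to 7.68, 3 tags), below Hspb8, and Hsp90aa1 at 0. Because whole muscle was used, fewer cells of a type and less RNA per cell cannot be told apart, and a tag count follows both the amount of an RNA and how often Mbnl2 contacts it.

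**Figure D1:**
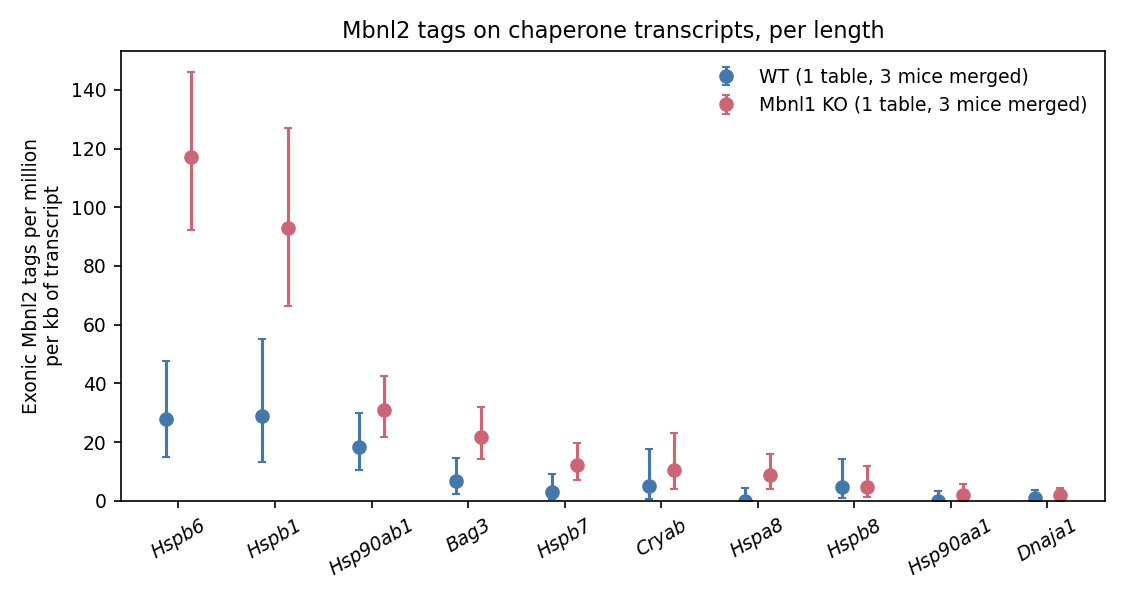
CPM per kb of exons (longest coding transcript, linear axis) for each of the 10 chaperone genes in the WT and *Mbnl1* KO tables, each a merge of 3 mice; points are values and bars are exact Poisson 95% intervals. Hspb6 and Hspb1 have the highest KO values, 117 and 93.0 (115 and 18.6 without tags that match elsewhere), whereas the WT intervals of the 3 densest genes overlap.

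Hspb6, also called Hsp20, is a small heat shock protein abundant in striated and smooth muscle. Its gene (ENSMUSG00000036854.8) lies at chr7:31337197-31340462 on the plus strand. It had 13 WT tags (37.8 CPM) and 76 KO tags (159 CPM), the highest KO value of the 10 genes. The Poisson intervals of the genotypes, 20.1 to 64.7 and 126 to 200, did not overlap. The KO/WT ratio was 4.21 (2.32 to 8.28), or 2.88 (1.59 to 5.65) without single-base tags. By tags pooled over both genotypes Hspb6 ranked 497 of the 16034 protein-coding genes with a tag. No Hspb6 tag was intronic: the 3′ UTR held 11 WT and 62 KO tags (ratio 4.06, 2.12 to 8.56) and the coding sequence 2 and 14 (ratio 5.05, 1.16 to 45.7). Without single-base tags the coding sequence interval included 1.

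Within the 807-nt 3′ UTR of Hspb6 the tags of both genotypes lay mostly in the part nearest the stop codon, at a median of 167 nt past it in WT and 177 nt in KO. The tallest run, at 168 nt, held 4 WT and 19 KO tags (ratio 3.42, 1.14 to 13.8), and its interval included 1 without single-base tags. Its tallest position gave the word-free window printed above. A neighbouring run at 211 nt held 1 WT and 19 KO tags (13.7, 2.18 to 569), and its window also had 0 words. The run at 86 nt held 1 WT and 11 KO tags (7.93, 1.15 to 341), and its interval also included 1 without single-base tags. Its window, chr7:31339727-31339756 on the plus strand, contained 2 words and is shown as the contrast to the word-free windows.
Hspb6 at 86 nt: cTGCCcagccagatgtcccaatCGCCgtca

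The words were thus present in the window of the run with 11 KO tags and absent from the windows of both runs with 19. These runs are 67 and 130 nt long, and the rest of their length was not searched. The run at 473 nt (1 WT and 4 KO tags) had 2 words in its window. The windows of the coding sequence runs had 1, 3 and 2. Reads were concentrated in few tags: the 2041 WT reads of Hspb6 included 1821 in 1 tag, whereas the 24379 KO reads included at most 5183 in 1 tag.

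Hspb1, the mouse Hsp25, is a small heat shock protein that stabilizes actin filaments and is phosphorylated under stress. Its gene (ENSMUSG00000004951.9) lies at chr5:136363789-136365433 on the plus strand. There were 9 WT tags (26.2 CPM) and 41 KO tags (86.0 CPM), and the intervals of 12 to 49.7 and 61.7 to 117 did not overlap. The ratio was 3.28 (1.57 to 7.69), or 2.24 (1.07 to 5.24) without single-base tags. All 9 WT and 40 of the KO tags were assigned to the 3′ UTR (ratio 3.20, 1.53 to 7.51). By the longest coding transcript alone, 36 of the KO tags were in the 3′ UTR and 4 in the coding sequence. That 3′ UTR is 133 nt long in this transcript, and at 197 CPM per kb in WT and 568 in KO it ranked, with all tags, 9 and 8 among the 17673 genes with a 3′ UTR of at least 100 nt. The run that peaks 12 nt past the stop codon, at the window with 2 overlapping words, held 6 WT and 35 KO tags (4.21, 1.75 to 12.2). A second run at 119 nt held 3 and 5 (1.20, 0.234 to 7.74).

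The place of the Hspb1 tags in the genome was uncertain. Of the 50 tags, 38 (6 WT and 32 KO) also matched elsewhere without a mismatch, 33 of them at an unannotated place on chromosome 13 and 5 at the pseudogene Hsp25-ps1. At those other places 5 WT and 20 KO tags had been deposited, so reads from 1 RNA may be split between copies. With the tags that match elsewhere left out, 3 WT and 9 KO tags remained and the ratio was 2.16 (0.540 to 12.4), an interval that includes 1. When only tags of at least 2 reads were kept the Hspb1 ratio was 1.06, and it was 0.888 when single-base tags were left out as well.

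Hspb7 is a small heat shock protein largely restricted to heart and skeletal muscle. Its gene (ENSMUSG00000006221.7), at chr4:140976694-140981226 on the plus strand, had 3 WT tags (8.73 CPM, at the floor) and 19 KO tags (39.9 CPM). The ratio was 4.57 (1.34 to 24.1), and 3.12 (0.917 to 16.4) without single-base tags. The 3′ UTR held 2 WT and 10 KO tags, the coding sequence 1 and 6, and the introns 0 and 3. Its 3′ UTR tags lay far from the stop codon, at a median of 871 nt in WT and 971 nt in KO of 1253 nt, and the run at 973 nt, with the 3-word window, held 1 WT and 5 KO tags.

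Hspb8, the partner of Bag3, had 4 tags in each genotype, 11.6 CPM in WT and 8.39 in KO (ENSMUSG00000041548.4, chr5:116858500-116872873, minus strand). It was the only gene of the 10 with a ratio under 1 (0.721), but the interval ran from 0.134 to 3.87 and so holds changes of more than 2-fold in both directions. Without single-base tags its ratio was 0.492 (0.0916 to 2.64). In the 3′ UTR alone it had 2 WT and 4 KO tags, a ratio of 1.44 (0.207 to 15.9). Cryab, or alpha B-crystallin, which protects desmin filaments, had 2 WT tags (5.82 CPM, under the floor) and 10 KO tags (21.0 CPM; ENSMUSG00000032060.8, chr9:50560863-50564738, plus strand). Its ratio of 3.6 had an interval of 0.768 to 33.8, and was 2.46 (0.524 to 23.1) without single-base tags. Cryab tags fell in coding sequence (2 WT and 6 KO) and introns (0 and 4), with 0 in its 3′ UTR of 138 nt in either genotype. Among the small heat shock protein genes, the interval of the ratio thus lay above 1 for Hspb1, Hspb6 and Hspb7 and included 1 for Hspb8 and Cryab. With the median gene set to a ratio of 1, or with single-read tags dropped, the interval lay above 1 for Hspb6 (1.33 to 4.74 and 1.20 to 6.97) but included 1 for Hspb1 (0.901 to 4.40 and 0.398 to 3.28) and Hspb7 (0.770 to 13.8 and 0.549 to 22.1).

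**Figure D2:**
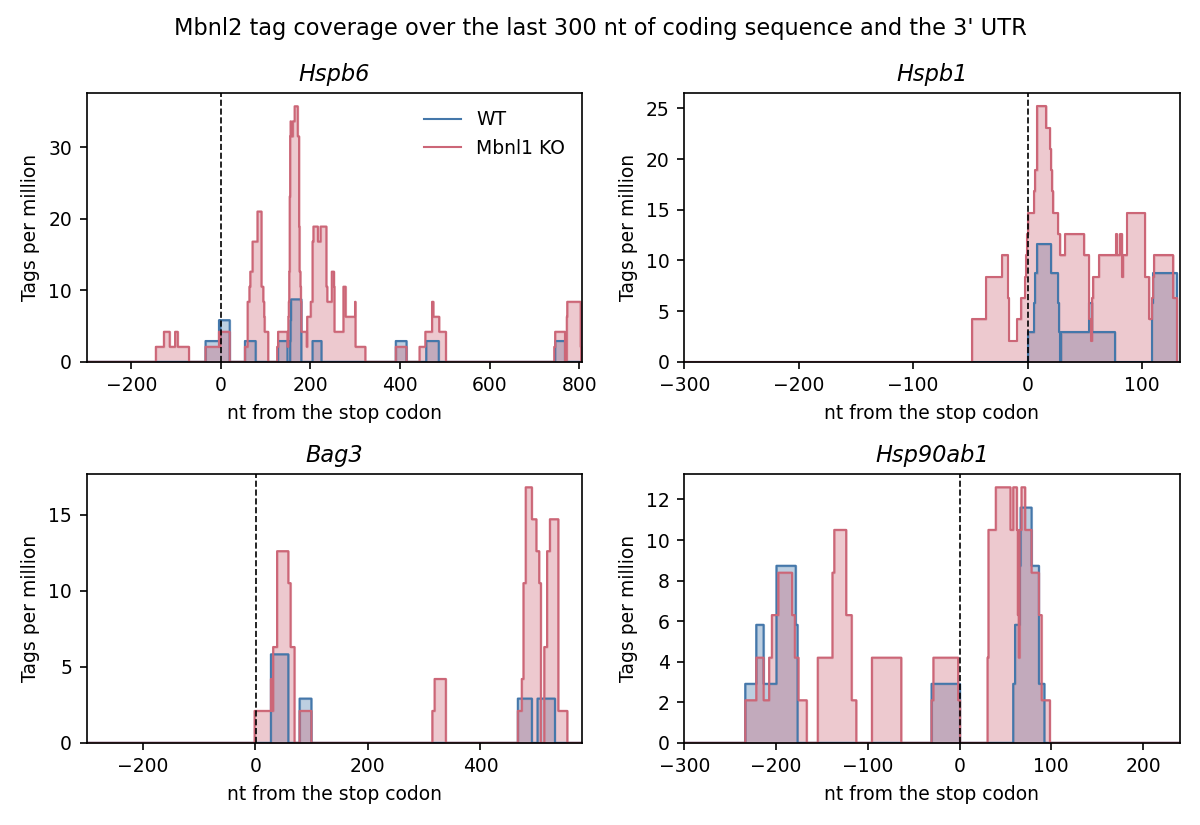
Depth of Mbnl2 tags (CPM at each nucleotide) along the end of the coding sequence and the 3′ UTR of Hspb6, Hspb1, Bag3 and Hsp90ab1, by distance in nt from the stop codon (dashed line), in the WT and *Mbnl1* KO tables. KO tags of Hspb6 pile up near 168 nt and those of Bag3 near 486 nt, and the Hspb1 pile lies just past the stop codon.

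Hspa8, the constitutive HSP70 Hsc70, is host to the small nucleolar RNA genes Snord14c, Snord14d and Snord14e in its introns. These C/D box RNAs, the U14 family, act on ribosomal RNA. Over the whole locus (ENSMUSG00000015656.10), chr9:40609067-40613283 on the plus strand, there were 5 WT tags (14.6 CPM) and 49 KO tags (103 CPM), a ratio of 7.07 (2.83 to 22.7) and the highest of the 10 genes. Without single-base tags the ratio was 4.82 (1.93 to 15.5). All 5 WT and 38 of the 49 KO tags lay over the small nucleolar RNA genes. Snord14d (chr9:40612078-40612163) held 2 WT and 22 KO tags (7.93, 1.95 to 69.6), Snord14c (chr9:40611666-40611751) 1 and 15 (10.8, 1.66 to 455), and Snord14e (chr9:40612831-40612920) 2 and 1 (0.360, 0.00611 to 6.92). Hence most Hspa8 tags were not tags of its mRNA. Summed over all annotated small nucleolar RNA genes the ratio was 2.0 (1.65 to 2.44), with 144 WT and 400 KO tags.

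Snord14c and Snord14d share much of their sequence: 25 Hspa8 tags matched a second place only inside Hspa8, so tags cannot be placed in 1 copy rather than the other. The tallest Snord14c window, chr9:40611720-40611749 on the plus strand, is shown because it opens with the letters that end the Snord14d window.
Snord14c: ttggctagttccttccttggatgtctgagc

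The mRNA of Hspa8 itself had 0 WT tags and 11 KO tags, 10 in the coding sequence and 1 in another exon. Of the 10 coding sequence tags, 7 also matched places outside the gene, mainly the pseudogenes Gm15459 and Gm8355, where 6 KO tags had been deposited. With all 10 tags the exact interval of the coding sequence ratio ran from 1.62 upward. Without those 7, 3 KO tags remained, which is at the floor. Among all 10 coding sequence tags, 5 KO tags formed a run at chr9:40610121-40610152 on the plus strand, with 1 word in its window. Since only 3 of the 10 match no place outside the gene, this run includes tags that also match elsewhere. Tags were absent from the 83-nt 3′ UTR in both tables. Dnaja1, a J protein that stimulates HSP70 (ENSMUSG00000028410.7, chr4:40669183-40684182, plus strand), had a ratio of 2.16 with an interval of 0.387 to 21.9. Without single-base tags its ratio was 1.23 (0.201 to 12.9). Dnaja1 had 2 WT (5.82 CPM) and 6 KO tags (12.6 CPM). Of these, 2 WT and 5 KO tags fell in its 4203-nt 3′ UTR, and 2 WT and 4 KO of them formed the single run at 554 nt, over the window with 2 TGCT words. The microRNA gene Mir207 inside Dnaja1 had 0 tags.

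Of the cytosolic HSP90 genes, Hsp90ab1, the constitutive form, was tagged in both genotypes, whereas Hsp90aa1, the stress-inducible form, was at or under the floor. Hsp90aa1 (ENSMUSG00000021270.7, chr12:111928815-111940938, minus strand) had 0 WT and 3 KO tags (6.30 CPM), and no ratio is given. All 3 tags also matched other places, among them the pseudogene Gm5844. Hsp90ab1 (ENSMUSG00000023944.8, chr17:45704724-45710220, minus strand) had 16 WT tags (46.6 CPM) and 37 KO tags (77.6 CPM). The Poisson intervals of 26.6 to 75.6 and 54.7 to 107 overlapped, and the ratio of 1.67 (0.905 to 3.21) included 1, as did 1.14 (0.617 to 2.19) without single-base tags. With all tags its WT value was the highest of the 10 genes, but its interval overlapped that of Hspb6 (20.1 to 64.7). Of WT tags that match no other place, Hsp90ab1 had 5 and Hspb6 had 13. Hsp90ab1 was also the only gene of the 10 with at least 20 tags in the coding sequence, with 12 WT and 26 KO (1.56, 0.761 to 3.40). Its 3′ UTR held 4 WT and 11 KO tags in 1 run about 70 nt past the stop codon (1.98, 0.587 to 8.54).

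A run in the Hsp90ab1 coding sequence at chr17:45705235-45705301 on the minus strand held 5 WT and 6 KO tags (0.865, 0.220 to 3.58). Its window, chr17:45705244-45705273, is shown because it holds 3 words.
Hsp90ab1 coding sequence: TGCTgtttgaaacTGCTcTGCTctcctctg

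Of the 53 Hsp90ab1 tags, 29 (11 WT and 18 KO) matched other places as well, 17 of them within the bounds of Ryr3 and 6 at the pseudogene Gm6368, and 15 WT and 25 KO tags had been deposited at those places. With the 29 tags left out, 5 WT and 19 KO tags remained and the Hsp90ab1 ratio was 2.74 (0.989 to 9.39), over 1.5 times the value from all tags.

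Bag3, the co-chaperone that couples HSP70 and Hspb8 in chaperone-assisted autophagy (ENSMUSG00000030847.7), lies at chr7:135667097-135690491 on the plus strand. It had 11 WT tags (32.0 CPM) and 30 KO tags (63.0 CPM), with a ratio of 1.97 (0.958 to 4.35), and of 1.30 (0.629 to 2.88) without single-base tags. The 3′ UTR held 5 WT and 25 KO tags (ratio 3.6, 1.36 to 12.1), while the introns held 5 WT and 3 KO tags (0.433, 0.0672 to 2.22). Without single-base tags the interval of the 3′ UTR ratio also included 1. Whether the ratios of these regions differ was not tested. In the 581-nt 3′ UTR the median tag lay 89 nt past the stop codon in WT and 489 nt in KO. The run at 486 nt held 2 WT and 15 KO tags (5.41, 1.26 to 48.7) and that at 48 nt 2 and 7 (2.52, 0.480 to 24.9), and neither window held a word. Without single-base tags the interval of the run at 486 nt included 1. Most Bag3 reads lay in single tags outside the 3′ UTR, with 1301 of 1358 WT reads in 1 intronic tag and 4850 of 6154 KO reads in 1 coding sequence tag. The 3′ UTR held 13 WT and 1239 KO reads.

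**Figure D3:**
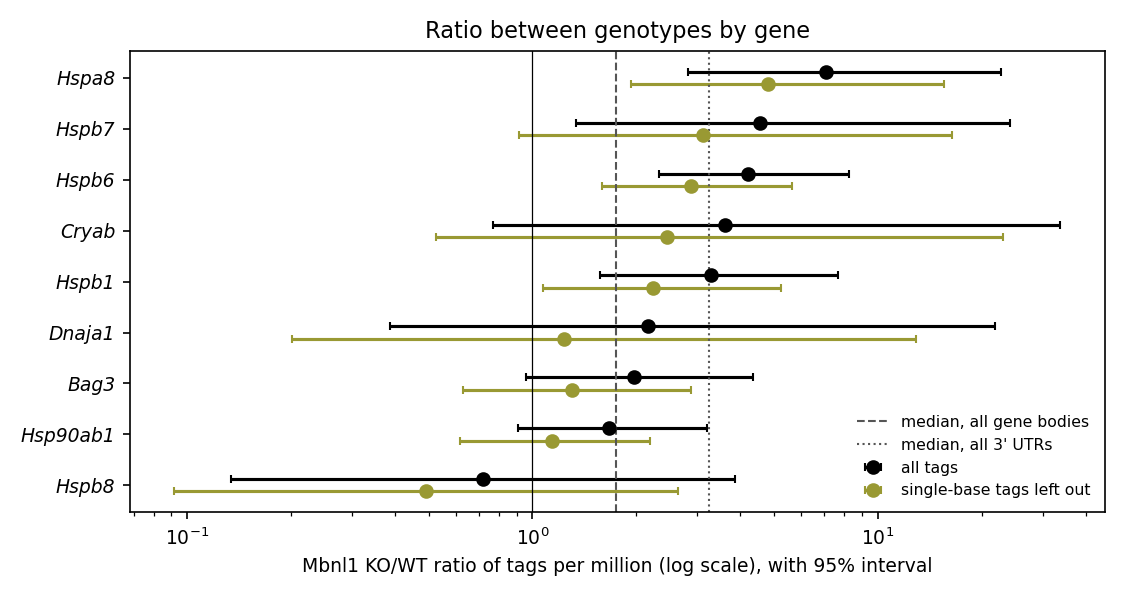
*Mbnl1* KO/WT ratio of CPM (log axis) for the 9 chaperone genes with a WT tag, before and after removal of single-base tags; bars are exact 95% intervals, and lines mark a ratio of 1 (solid) and the medians of all gene bodies (dashed, 1.75) and all 3′ UTRs (dotted, 3.24) with at least 20 tags. With all tags, 4 intervals lie above 1 (Hspa8, Hspb1, Hspb6 and Hspb7), and without single-base tags that of Hspb7 reaches 0.917.

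Set side by side, 6 of the 10 genes had a ratio of at least 2 (Hspa8, Hspb7, Hspb6, Cryab, Hspb1 and Dnaja1), and the intervals of 4 (Hspa8, Hspb7, Hspb6 and Hspb1) lay above 1. The number with a ratio of at least 2 was 4 with the median gene at 1 and 3 with tags of at least 2 reads. Of the 6 genes with at least 20 tags, mostly KO tags, 4 had a ratio of at least 2 and the same 4 had an interval above 1. Among all 3888 protein-coding genes with that many tags, 41.6% had a ratio of at least 2, 38.6% an interval above 1 and 3.83% an interval below 1. With a minimum of 3 tags, the count of the least tagged of the 10, those shares were 40.3% and 16.3% of 12132 genes, beside 7 and 4 of the 10 chaperone genes (here a gene with 0 WT tags counts as above 2). Without single-base tags they were 29.1% and 26.5% of 3307 genes, beside 4 and 3 of 6. The median ratio of the 9 genes with a WT tag was 3.28, and 2.72 for 8 genes without the small nucleolar RNA tags. With at least 20 tags the median was 3.75 for 6 chaperone genes and 1.75 for all genes, and with at least 3 tags 3.44 and 1.54. When tags of 1 read were left out, it was 1.18 for 5 chaperone genes and 1.49 for all genes with at least 20 tags. It was 0.992 and 1.33 without single-base tags as well. With the small nucleolar RNA tags left out, Hspa8 had 0 WT tags and no ratio, and 5 of the 8 genes with a WT tag had a ratio of at least 2 and 3 an interval above 1. The summed tags of the 10 gave a ratio of 3.05 (2.32 to 4.06), which was 2.85 (2.14 to 3.85) without the small nucleolar RNA tags, 2.07 without single-base tags and 1.32 (0.933 to 1.92) when tags of 1 read were left out too.

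The chaperone genes differed from the sum of other protein-coding genes in where their tags fell. Of their tags, 53.8% in WT (41.0 to 66.3) and 57.5% in KO (51.4 to 63.4) lay in 3′ UTRs, against 16.4% and 29.8% for other protein-coding genes. Coding sequence held 29.2% and 24.0%, against 6.06% and 10%. Introns held 9.23% and 4.00%, against 75.5% and 58.0%. Small RNA genes, which for the chaperone genes were those in Hspa8 introns, held 7.69% and 13.8%, against 0.243% and 0.346%. Their tags are not part of the intron values here. In 5′ UTRs there were 0 tags of 65 in WT and 0 of 275 in KO, which allows a share of up to 5.52% and 1.33%. The chaperone genes are short, from 1645 to 23395 nt with a median of 5015 nt, and 64.1% of their length is intron, whereas the other tagged genes had a median of 26423 nt and 93.1% intron. Per kb of intron, the chaperone genes had 0.310 CPM in WT (0.114 to 0.674, 6 tags) and 0.409 in KO (0.204 to 0.732, 11 tags), and these intervals held the 0.211 and 0.261 of other genes. Single genes outside the 10 varied. Introns held 1 of 72 WT and 4 of 193 KO tags of Acta1, but 26 of 55 and 110 of 188 of Tnnt3.

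**Figure D4:**
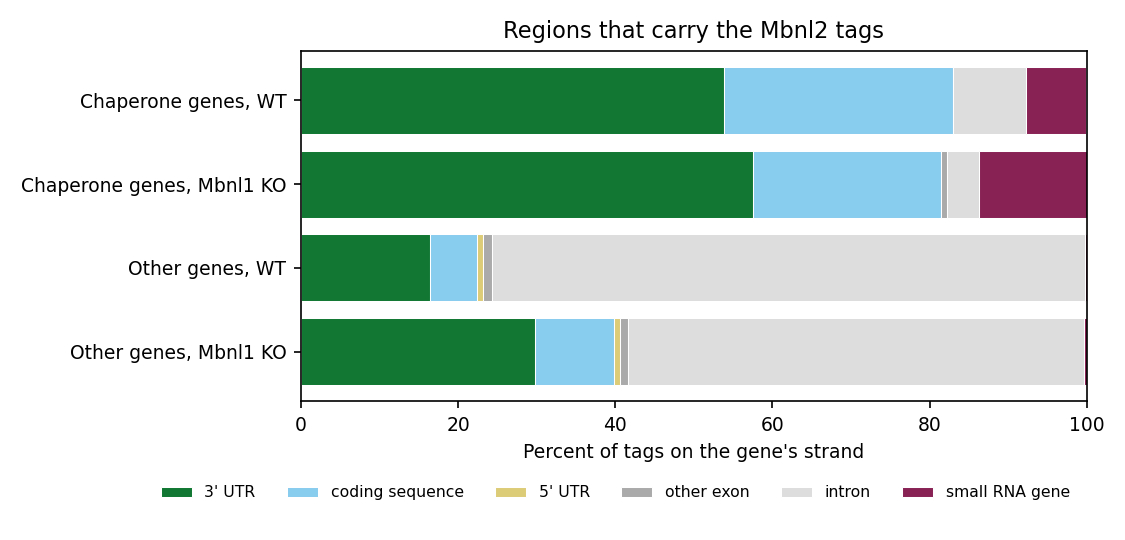
Share of tags (percent of the tags on each gene set) in each region, stacked to the whole, for the 10 chaperone genes and for other protein-coding genes in the WT and *Mbnl1* KO tables. The 3′ UTR takes 53.8% and 57.5% of chaperone tags, and introns take 75.5% and 58.0% of those of other genes.

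Compared within a region, the ratios of the chaperone genes and of other genes were close. In 3′ UTRs the summed ratio was 3.25 (2.24 to 4.84) for the chaperone genes, with 35 WT and 158 KO tags, and 2.93 (2.88 to 2.99) for the others. In coding sequence it was 2.50 (1.48 to 4.42) and 2.67 (2.59 to 2.76), and in introns 1.32 (0.448 to 4.35) and 1.24 (1.23 to 1.25). In each of the 3 regions the interval of the chaperone genes held the value of the other genes. All 3 chaperone genes with at least 20 tags in the 3′ UTR (Hspb1, Hspb6 and Bag3) had a 3′ UTR ratio of at least 2 and an interval above 1, as did 86.8% and 77.9% of 864 genes. Without single-base tags all 3 had a ratio of at least 2 and 2 (Hspb1 and Hspb6, but not Bag3) had an interval above 1, beside 60.2% and 49.7% of 859 genes. These 3 include Hspb1, of whose 49 3′ UTR tags 38 also match elsewhere. In coding sequence, 83.1% of 148 genes had a ratio of at least 2, beside 1.56 for Hsp90ab1, which was 2.34 (0.724 to 9.86; 4 WT and 13 KO tags) with tags that match elsewhere left out.

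The make-up of the tags was compared as well. Only 2 KO tags and 0 WT tags on these genes were single-base tags, against 26.8% of WT and 7.92% of KO tags on other genes. Most of the latter were intronic: of the 3′ UTR tags of other genes 4.25% in WT and 0.663% in KO were single-base tags, and of their coding sequence tags 0.581% and 0.167%, beside 0 for the chaperone genes in both regions. Tags on the opposite strand numbered 4 in WT and 14 in KO, or 5.80% and 4.84% of the tags on both strands, against 43.9% and 27.3% for other genes. Tags of 1 read made up 38.5% in both genotypes (25 of 65 and 106 of 275), and the median was 3 reads per tag. The tags took 58 distinct positions in WT and 196 in KO, with at most 2 and 4 at the same position.

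Beyond these 10 genes, 92 other genes of the chaperone system were counted in lists by family, of which 23 had at least 20 tags. Of these, 15 had a ratio of at least 2 and 14 an interval above 1, beside 41.6% and 38.6% of all genes with as many tags, whereas 0 had a ratio of at most 0.5, beside 3.76%, or an interval below 1. Their median ratio was 2.50. Without single-base tags, 22 genes had at least 20 tags, of which 10 had a ratio of at least 2 and 10 an interval above 1, beside 29.1% and 26.5% of all genes, and Fkbp5, an HSP90 co-chaperone named after its values were seen, was at 0.376. Chaperone-assisted autophagy, the route that Bag3 serves, had all 5 genes above 20 tags, and 4 of these had a ratio of at least 2 (113 WT and 383 KO tags, 2.44), or 2 without single-base tags. Sqstm1, the autophagy receptor p62, had 21 WT and 110 KO tags (3.78, 2.35 to 6.34), 20 and 98 of them in its 3′ UTR, and its ratio was 2.55 (1.59 to 4.29) without single-base tags. Synpo2, a Z-disc partner of Bag3, had 53 and 149 (2.03, 1.47 to 2.83), of which 36 and 117 were in its 3′ UTR, and 1.40 without single-base tags. Map1lc3b, the autophagosome protein LC3B, had 15 and 52 (2.50, 1.39 to 4.78), or 1.71 (0.946 to 3.26) without single-base tags. These 3 genes had most of their KO tags in the 3′ UTR, as Bag3 did, whereas Flnc, the filamin of the Z-disc, had 0 of its 50 KO tags there and Wipi1 8 of 22.

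Among J proteins, 10 of 33 genes had at least 20 tags and 5 of these a ratio of at least 2, a share near that of all genes. Without single-base tags it was 5 of 9 genes, beside 29.1% of all genes. Dnaja2, a relative of Dnaja1, had 19 WT and 59 KO tags (2.24, 1.32 to 3.98), 18 and 53 of them in its 3′ UTR, and 1.53 (0.898 to 2.71) without single-base tags. Dnaja4, named after its values were seen, had 4 and 50 (9.01, 3.31 to 34.4), the highest ratio of the 23, and 6.15 (2.26 to 23.4) without single-base tags. Among BAG proteins and other co-chaperones, 4 of 6 genes with at least 20 tags had a ratio of at least 2, or 3 of 6 without single-base tags. Unc45b, the myosin chaperone of striated muscle, had 114 WT and 400 KO tags (2.53, 2.05 to 3.14), the most of any gene listed, of which 112 and 390 were intronic and 0 lay in its 3′ UTR. Its ratio was 1.78 (1.43 to 2.22) without single-base tags. The other HSP70 genes summed to 35 WT and 105 KO tags (2.16, 1.46 to 3.27), and the chaperonins to 15 and 50 (2.40, 1.33 to 4.61) with no gene above 20. The heat shock factor Hsf2, which controls transcription, had 4 and 18 tags (3.24, 1.07 to 13.2), or 1.97 (0.635 to 8.09) without single-base tags. The other small heat shock protein genes had 5 WT and 4 KO tags and the other HSP90 genes 11 and 12, with no gene above 20 tags in either list.

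Of the marker lists of other cell types of whole muscle, 3 had an interval above 1 and 3 one that included 1. Fibroblast genes had 161 WT and 688 KO tags (3.08, 2.59 to 3.68), adipocyte genes 7 and 42 (4.33, 1.93 to 11.4), endothelial genes 37 and 87 (1.70, 1.14 to 2.56, of which Cdh5 held 13 and 55, while Pecam1 was at 0.811 and Kdr at 1.26), macrophage genes 15 and 18 (0.865, 0.412 to 1.84), Schwann cell genes 6 and 14 (1.68, 0.607 to 5.34) and red cell genes 5 and 6 (0.865, 0.220 to 3.58), beside 920 and 3242 for the skeletal muscle genes (2.54, 2.36 to 2.74). Hbb-b2 and Nppa were at 0 in both tables. The part of these cells in the chaperone ratios was not tested.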

How the data were processed

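Mbnl2 HITS-CLIP tags of quadriceps muscle were analysed from 1 deposited BED table per genotype, each merging 3 mice. Per the labels and the study's methods, the authors aligned reads to mm9 with BWA (version and settings not given in the sources used here), discarded sequences under 20 nt, removed PCR duplicates and merged the mice; the tables nevertheless hold tags from 18 to 33 nt. The score column of the deposited files holds whole-number counts, the reads collapsed into each unique tag. Tags, not reads, were counted here (343554 and 476543 tags from 5176203 and 50329234 reads).

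A tag was assigned by any overlap on the gene's strand, in the order small RNA gene, 3′ UTR, coding sequence, 5′ UTR, other exon, intron, over all GENCODE vM1 transcripts. Chromosome lengths fit NCBIM37, from which sequences were read. Ratios were scaled by unique tags, and Clopper-Pearson and Poisson intervals used a 95% level. PCR reads without molecular identifiers are not independent molecules, so intervals and floors cover counting error only. Intervals were tested on simulated tags for the 3888 genes compared: 96.4% held the true ratio, and 96.0% of genes made 4-fold higher were called. Of unchanged genes, 3.52% were called. The simulated counts had Poisson error only, so they cannot show the effect of spread between mice or of PCR copies. Genes with fewer than 20 tags were not simulated. The genes and lists were chosen with earlier results of these data known. Named were the 10 genes, the 5 other chaperone genes with the most tags, any such gene with at least 20 tags and a ratio of at most 0.5 (there were none), and the tallest run of each gene; further runs and Dnaja4, Fkbp5, Flnc, Wipi1 and Hsf2 were chosen after their values were seen. Alternatives changed scaling, the tags kept, the overlap rule, transcripts and the minimum number of tags per gene. Python 3.11.15, pandas 2.3.3, numpy 2.4.6, scipy 1.17.1 and matplotlib 3.10.9 were used.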

Additional observations from a re-analysis of the deposited data

How the results depend on the processing

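No paired analysis was possible because each genotype is 1 merged table, and for the same reason no replicate could be left out. The summed ratio of the 10 genes, 3.05, was 4.23 from raw tags, 1.75 when the median gene was set to 1 (a shift of the median from 1.75), 2.07 without single-base tags, 1.58 with tags of at least 2 reads and 1.32 with both restrictions. The median ratio, 3.28, was 1.18 with tags of at least 2 reads and 0.992 with both restrictions, and under each of these 3 genes had a ratio of at least 2 and 2 an interval above 1. Under the same read limits the median of all genes with at least 20 tags, 1.75, was 1.49 and 1.33 and their summed ratio 1.48 and 1.31. The number with an interval above 1 was 7 from raw tags and 2 with the median gene at 1. Where it was 2, these were Hspa8 and Hspb6. Cryab, at 3.6 with all tags, was at 1.31 with tags of at least 2 reads and 1.10 with both restrictions. Single genes crossed 1 as follows: Hsp90ab1 to 0.955 with the median gene at 1, 0.995 with tags of at least 2 reads and 0.836 with both restrictions; Dnaja1 to 0.560 and 0.470, Hspb1 to 0.888 and Bag3 to 0.992 under the same read limits; and Hspb8 to 1.44 in 3′ UTRs only, a setting chosen after seeing the data. With tags that match elsewhere left out (for densities and coding sequence, chosen after seeing the data), 3 genes had an interval above 1, since that of Hspb1 then included 1 (2.16), and Hsp90ab1 was at 2.74. The share of all genes with a ratio of at least 2 was 39.3% with at least 10 tags and 48.1% with at least 50, and that with an interval above 1 was 27.7%, 60.7% and, with at least 3 tags (also chosen after seeing the data), 16.3%. The counts of other chaperone genes without single-base tags were also chosen after seeing the data. The cause of these shifts was not tested. The ratios of Hspb6 (2.24 to 5.85), Hspb7 (2.04 to 6.33) and Hspa8 (3.24 to 9.80) stayed above 1 in all 11, 11 and 8 alternatives that gave a value; with 0 WT tags left, Hspa8 and Cryab gave none in the others and Hsp90aa1 none in any. The 3′ UTR share ranged from 47.5% to 55.2% in WT and from 52.7% to 57.9% in KO under changes of region rule and tags kept, and was 58.3% and 66.7% without the small nucleolar RNA tags. With 65 WT tags on 10 genes, depth limits each single ratio.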
